A study of Drosophila melanogaster with 17 samples.

Results

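Irradiated eye discs lacking E2f1 in their posterior part were compared with irradiated wild type discs of Drosophila larvae. The members are the 5 arrays whose labels give these 2 groups, 3 of de2f1 discs (replicates 1, 2 and 3) and 2 of wild type discs (replicates 1 and 3), among 17 arrays in all. Both groups came from 3rd instar larvae kept at 25 °C, received 40 Gy of gamma rays and were dissected 4 h later. No source used here names an allele of the wild type discs or says which control genotype they were. In the de2f1 discs the gene was deleted in the posterior, and no source used here says how the deletion was driven or whether it was clonal. RNA was taken from whole discs, so anterior cells with an intact gene are part of every de2f1 value, and fewer cells of a type and less RNA per cell cannot be told apart. The other 12 arrays hold untreated wild type, untreated de2f1 and dDP mutant discs, and they enter the estimate of the spread.

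E2F transcription factors bind DNA together with the partner protein Dp, and E2f1 is the activating member of the family in flies, where it drives genes of DNA replication and nucleotide supply and is held back by the retinoblastoma protein Rbf. In the eye disc a furrow sweeps from posterior to anterior, cells behind it pass through a last synchronous round of division, and the remaining cells become photoreceptors and accessory cells. Ionising radiation in this tissue switches on p53, which raises repair and death genes, and checkpoint kinases stop cells before mitosis. The comparison asks which transcripts differ between the genotypes once both have been irradiated.

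Expression is given as log2 values per probe set from robust multi-array averaging (RMA). A difference is de2f1 minus wild type on this log2 scale with the standard error of the contrast from limma, fitted over all 17 arrays, and a gene passed when its Benjamini-Hochberg adjusted p over 18769 probe sets was under 0.05. Every adjusted p below comes from that fit, with n = 3 against 2 arrays for irradiated and 3 against 3 for untreated discs. Labels call the samples biological replicates without naming the animals, so the p values measure the spread between these samples. Levels of different probe sets are not comparable with each other. Array medians of the 5 arrays lay between 5.82 and 5.86, and each array correlated with the others of its group at 0.996 to 0.997. Eye disc markers (ey, eya, so, dac, gl, ato, elav and chp) were present at the same mean level, 10.63 and 10.64 on the wild type arrays and 10.53 to 10.74 on the de2f1 arrays, and none of the 8 passed. The probe set of E2f1 is shared with another gene, and the level of E2f1 itself was therefore not analysed here. Dp read 10.04 and 10.23 in wild type and 10.12, 10.30 and 10.20 in de2f1 discs, overlapping values (0.07 ± 0.21, adjusted p = 0.922).

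In total 1619 of 18769 probe sets passed (8.63%), 691 higher in de2f1 discs (3.68%) and 928 lower (4.94%). Counted as 1 probe set for each of 11982 genes, 533 genes were higher (4.45%) and 709 lower (5.92%), together 10.4%. All of these 533 and 709 genes had groups of arrays that did not overlap. Non-overlap in a called gene therefore adds nothing to its call. The size of a typical called difference was small, with a median of 0.47 on the log2 scale, and 127 probe sets were higher and 143 lower by more than 2-fold. The median over all genes was -0.01. The number rested on the pair of wild type arrays: it was 933 without array 1 and 737 without array 3, of which 881 and 723 were among the 1619. After quantile normalization 810 probe sets were higher and 780 lower. The called genes lay on every chromosome arm, from 9.29% of genes on 3R to 11.3% on 2R, with 15.4% of 65 genes on chromosome 4, by gene positions in the RefSeq Release 6 annotation. Among the 40 measured genes nearest to E2f1 in gene order, 20 on each side, 0 were higher and 2 lower, a share of 5%.

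Genes for the G2 phase and mitosis were higher in irradiated de2f1 discs in many cases. Of 37 measured, 17 were higher and 0 lower, 45.9% against 4.45% of all genes, and the median difference was 0.19 against -0.01 for all genes. This list, like the others, was chosen with earlier results of these data known, so the share is a description. The listed genes CycA, Cdk1, stg, aurA, polo, BubR1, Klp3A, pav, Top2 and asp were not measured here for lack of a probe set with 1 gene symbol. In 32 of the 37 measured genes the difference had a positive sign. The largest belonged to aurB, which codes for the Aurora B kinase that corrects chromosome attachment. aurB read 9.09 and 9.003 on the 2 wild type arrays and 9.93, 9.95 and 9.91 on the 3 de2f1 arrays. The groups were far apart, and the difference of 0.89 ± 0.07 (adjusted p = 1.09e-06) amounts to 1.85-fold. Incenp, the scaffold protein of the same chromosomal passenger complex, read 10.47 and 10.35 in wild type and 10.92, 10.88 and 10.86 in de2f1 discs (0.47 ± 0.07, adjusted p = 0.000351).

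Both B-type cyclins, which activate the mitotic kinase Cdk1, were higher. CycB read 11.15 and 11.09 in wild type against 11.65, 11.65 and 11.67 in de2f1 discs (0.54 ± 0.08, adjusted p = 0.000613). CycB3 read 9.28 and 9.18 against 9.76, 9.84 and 9.83 (0.57 ± 0.08, adjusted p = 0.000525). In both cyclins every de2f1 array exceeded both wild type arrays. fzy, the Cdc20 activator of the anaphase-promoting complex that destroys these cyclins, read 10.45 and 10.37 against 10.86, 10.84 and 10.88 (0.46 ± 0.06, adjusted p = 0.000301). Of the spindle and cytokinesis genes, the minus-end motor gene ncd was higher by 0.58 ± 0.06 and the centralspindlin gene tum by 0.37 ± 0.06. The condensin gene barr was higher by 0.35 ± 0.06. These 8 genes (aurB, Incenp, CycB, CycB3, fzy, ncd, tum and barr) passed whichever of the 5 arrays was left out.

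The other 9 G2 and M phase genes that passed did so by 0.19 to 0.35, and each lost its call when 1 or more of the arrays was left out. They were the condensin genes SMC2 and Cap-D2, the securin gene pim, the spindle checkpoint genes mad2, Mad1 and Mps1, the kinetochore gene Ndc80, the kinesin gene Klp61F and mars. Without wild type array 3 none of the 9 passed, with adjusted p between 0.0672 (mad2) and 0.308 (Mad1), and across all alternatives their adjusted p lay between 0.000373 and 0.308. The count of higher members was then 8, without wild type array 1 it was 12, and without a de2f1 array it was 11 to 14. Quantile normalization gave 20. None was lower under any of these settings.

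**Figure D1:**
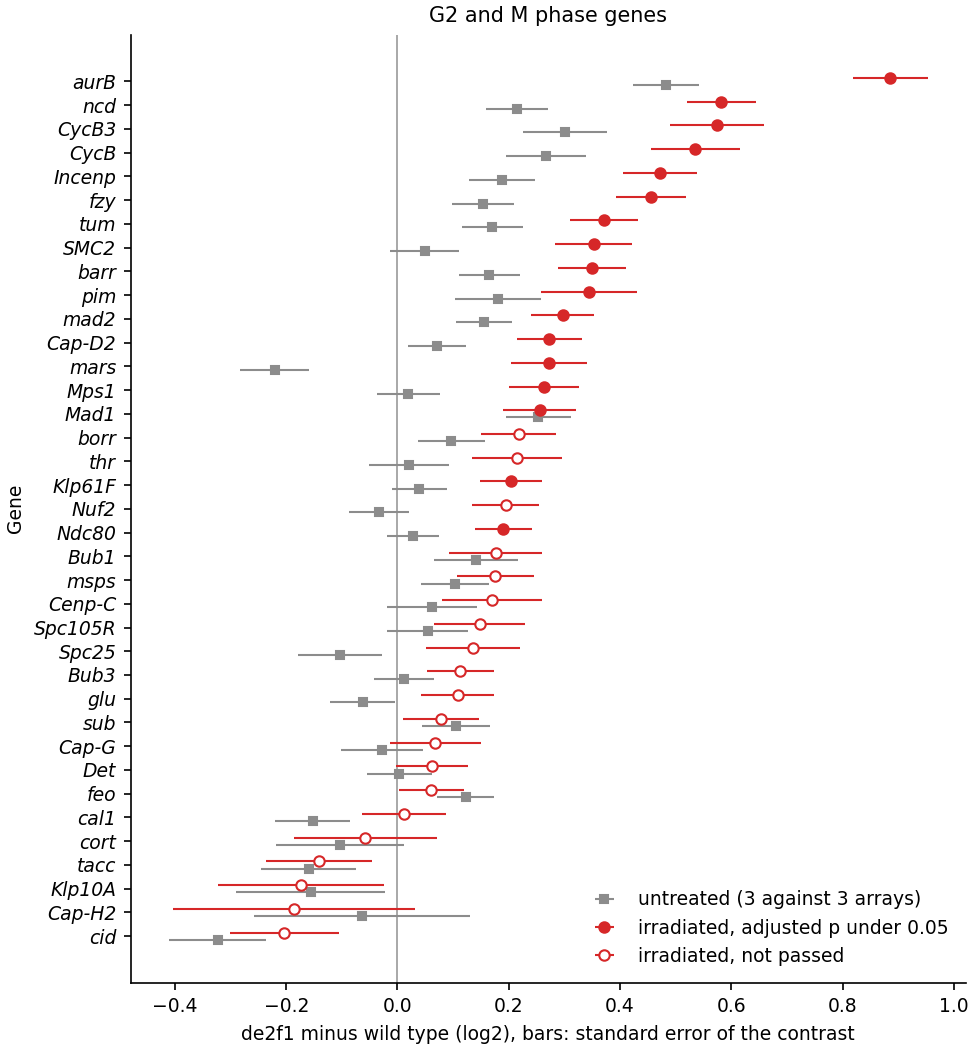
Difference between de2f1 and wild type discs (log2, bars are standard errors of the contrast) for each of the 37 G2 and M phase genes, irradiated in red (filled where adjusted p is under 0.05) and untreated in grey. The irradiated values run from -0.20 for cid to 0.89 for aurB, with 32 of 37 to the right of 0, and 33 of 37 irradiated values lie above the untreated value of the same gene.

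In untreated discs, on separate arrays, 5 of the same 37 genes were higher in de2f1 (aurB, ncd, CycB, CycB3 and Mad1) and 2 lower (mars and cid), with a median of 0.05. The background there was 4.66% of genes higher and 6.05% lower. The untreated difference of aurB was 0.48 ± 0.06 (adjusted p = 0.000115) and that of fzy 0.15 ± 0.06 (adjusted p = 0.121). The difference between the irradiated and the untreated contrast, tested as an interaction term, passed for none of the 37, and the smallest adjusted p was 0.117 for mars (-0.22 ± 0.06 in untreated and 0.27 ± 0.07 in irradiated discs). Side by side, CycB had a mean of 11.56 in untreated wild type discs and read 11.15 and 11.09 on the irradiated wild type arrays, while its mean was 11.83 in untreated de2f1 discs and its irradiated de2f1 arrays read 11.65 to 11.67.

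Genes of the S phase, the class E2f1 is best known to drive, went both ways. Of 44 measured, 5 were higher and 7 lower, 11.4% and 15.9% against 4.45% and 5.92% of all genes, and the median was 0.03. The listed genes RnrS, Mcm7, PolD1, Orc6 and geminin were not measured here for lack of a probe set with 1 gene symbol, and lat was not matched to a current symbol. The replication genes PCNA and dup and the thymidylate synthase gene Ts, commonly used as E2F targets, did not pass in irradiated discs. PCNA, the sliding clamp, read 11.68 and 11.63 in wild type and 11.58, 11.66 and 11.60 in de2f1 discs, so the groups overlapped (-0.04 ± 0.06, adjusted p = 0.768). The difference was -0.04 ± 0.06 for the origin licensing gene dup and -0.01 ± 0.10 for Ts. In untreated discs Ts passed as lower (-0.34 ± 0.09, adjusted p = 0.0275). PCNA and dup did not pass there (-0.17 ± 0.05 each, adjusted p = 0.0552 and 0.0717). After irradiation the S phase cyclin gene CycE read 10.50 and 10.52 in wild type against 10.74, 10.65 and 10.72 in de2f1 discs (0.19 ± 0.10, adjusted p = 0.338). Of the 9 measured E2F and RB complex genes only lin-52, a subunit of the dREAM repressor complex, passed, and it was lower: 9.72 and 9.69 in wild type and 8.86, 9.08 and 8.89 in de2f1 discs (-0.76 ± 0.08, adjusted p = 3.04e-05).

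The higher S phase genes were Prim2 (0.57 ± 0.08) of DNA primase, Psf3 (0.46 ± 0.08) of the GINS complex, dpa (0.45 ± 0.06) and Mcm3 (0.32 ± 0.07) of the MCM helicase, and dUTPase (0.25 ± 0.07). Prim2 read 7.45 and 7.27 in wild type and 7.85, 7.99 and 7.95 in de2f1 discs (adjusted p = 0.000515). dpa, which codes for Mcm4, read 9.79 and 9.68 against 10.14, 10.25 and 10.18 (adjusted p = 0.000187). Neither gene's groups overlapped, and both calls held with any array left out, as did that of Psf3. Mcm3 lost its call without wild type array 3 (adjusted p = 0.104, over its alternatives 0.00105 to 0.104), and dUTPase without any 1 of the 5 arrays (adjusted p of 0.0801 to 0.239, over its alternatives 0.00416 to 0.239).

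On the lower side stood RfC3 and RfC4 of the clamp loader, all 3 subunits of the single-strand binding protein RPA, Psf1 of the GINS complex and RnrL, the large subunit of ribonucleotide reductase. RPA3 read 11.83 and 11.64 in wild type and 11.09, 11.04 and 11.14 in de2f1 discs (-0.65 ± 0.10, adjusted p = 0.000523). RnrL read 12.22 and 12.23 against 11.62, 11.85 and 11.71 (-0.50 ± 0.07, adjusted p = 0.000445). Both were separated without overlap, and their wild type levels after irradiation stood above the untreated wild type means of 11.18 for RPA3 and 11.39 for RnrL. RfC3 was lower by -0.80 ± 0.12 (adjusted p = 0.000861) and Psf1 by -0.55 ± 0.07 (adjusted p = 0.000193), and both also passed in untreated discs (-0.61 ± 0.11 and -0.51 ± 0.06).

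The remaining S phase calls were less firm. RPA1 was lower by -0.43 ± 0.10, RPA2 by -0.31 ± 0.06 and RfC4 by -0.34 ± 0.07. RPA1 missed the threshold without wild type array 1 (adjusted p = 0.0583), wild type array 3 (adjusted p = 0.194) or de2f1 array 1 (adjusted p = 0.0733), over its alternatives 0.00123 to 0.194. RPA2 missed it without wild type array 1 (adjusted p = 0.0679, over its alternatives 0.000731 to 0.0679) and RfC4 without wild type array 3 (adjusted p = 0.0556, over its alternatives 0.000448 to 0.0556). In untreated discs 2 S phase genes were higher and 8 lower, with a median of -0.07, and the interaction term passed for none of the 44.

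Of 15 radiation response genes measured, 6 were lower in de2f1 discs and 0 higher, with a median of -0.27. The list holds genes known to respond to radiation in flies and strong responders in an earlier account of these same arrays, the irradiated wild type arrays included. Since that choice used the irradiated wild type values, nothing is read from the share of 40% beside the 5.92% of all genes, and the values are a description. gkt, the fly tyrosyl-DNA phosphodiesterase that frees stalled topoisomerase from DNA, had the largest difference. It read 11.20 and 11.24 in wild type and 9.29, 9.47 and 9.26 in de2f1 discs, a difference of -1.88 ± 0.08 (adjusted p = 3e-09). gkt was lower by the same amount without irradiation (-1.81 ± 0.07, adjusted p = 8.76e-10). rad50, a subunit of the complex that senses double-strand breaks, read 11.26 and 11.23 against 10.73, 10.81 and 10.80 (-0.46 ± 0.08, adjusted p = 0.00118). Its untreated difference was -0.08 ± 0.07 (adjusted p = 0.579), and the test of the difference between the contrasts gave adjusted p = 0.589. The calls of gkt and rad50 held with any array left out.

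Irbp and Ku80, which form the Ku dimer of end joining, were both lower. Irbp read 10.23 and 10.37 in wild type and 9.49, 9.67 and 9.62 in de2f1 discs (-0.70 ± 0.14, adjusted p = 0.00563). Ku80 read 10.72 and 10.73 against 10.06, 10.25 and 10.18 (-0.56 ± 0.13, adjusted p = 0.0131). The alkyltransferase gene agt read 11.06 and 11.05 against 10.37, 10.58 and 10.46 (-0.59 ± 0.12, adjusted p = 0.0069). In each gene the groups were apart on every array, as in all called genes. The call depended on wild type array 3 for Irbp, and on both wild type arrays for Ku80 and agt. Irbp missed the threshold without wild type array 3 (adjusted p = 0.0813, over its alternatives 0.000381 to 0.0813). agt missed it without either (adjusted p = 0.0586 and 0.0607, over its alternatives 0.000463 to 0.0607). Ku80 missed it without wild type array 1 (adjusted p = 0.0827), wild type array 3 (adjusted p = 0.104) or de2f1 array 1 (adjusted p = 0.0532), over its alternatives 0.000703 to 0.104. AOX1, an aldehyde oxidase gene, was lower by -0.91 ± 0.26 (adjusted p = 0.0441) and missed it without any 1 of the 5 arrays (adjusted p of 0.0559 to 0.237, over its alternatives 0.00364 to 0.237). The count of lower members was 3 without wild type array 1, 2 without wild type array 3 and 10 with array weights.

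In irradiated de2f1 discs these genes stood above their untreated de2f1 levels. The untreated de2f1 mean was 7.82 for Irbp, 8.68 for Ku80, 9.78 for rad50 and 7.71 for agt, each below the lowest irradiated de2f1 array of the same gene. Members that did not pass included the p53 inhibitor gene Corp, which read 8.97 and 8.74 in wild type and 8.69, 8.75 and 8.65 in de2f1 discs (-0.16 ± 0.26, adjusted p = 0.833). The TNF ligand gene egr read 11.23 and 11.22 against 11.26, 11.29 and 11.37 (0.09 ± 0.09, adjusted p = 0.704), and p53 differed by 0.08 ± 0.15 (adjusted p = 0.859). The groups overlapped for Corp and p53, and every de2f1 array was above the wild type arrays for egr. mre11, the nuclease partner of rad50, differed by -0.27 ± 0.09 in irradiated discs (adjusted p = 0.0946) and by 0.41 ± 0.08 in untreated discs (adjusted p = 0.00586), with adjusted p = 0.101 for the difference of the contrasts. The death gene skl read 5.19 to 5.37 on all 5 arrays. Xrp1 and the death genes rpr and hid had no probe set with 1 gene symbol and were not measured here.

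**Figure D2:**
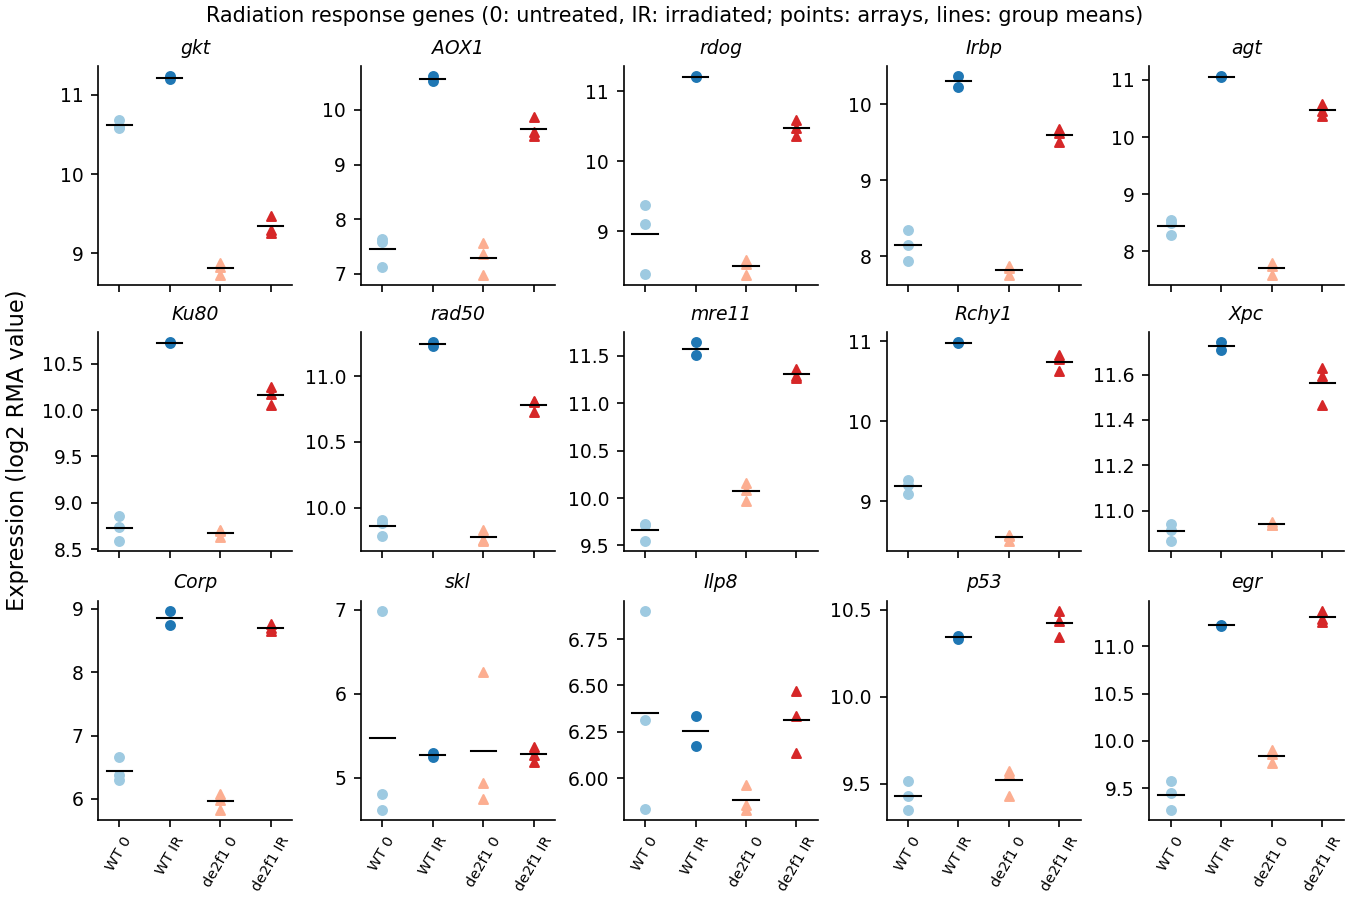
Log2 RMA values of the 15 radiation response genes on each array of the untreated (0) and irradiated (IR) wild type (WT) and de2f1 groups, with lines at group means and a separate vertical scale per gene. For Irbp the irradiated de2f1 arrays (9.49 to 9.67) lie below the irradiated wild type arrays (10.23 and 10.37) and above the untreated de2f1 mean of 7.82, while for gkt both de2f1 groups lie below both wild type groups.

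Repair and checkpoint genes outside that list passed in 5 of 32 cases, 2 higher (6.25%) and 3 lower (9.38%), with a median of 0.00. Among all genes 4.45% were higher and 5.92% lower. timeout, a timeless paralogue that supports replication forks, read 7.0 and 6.70 in wild type and 7.80, 7.92 and 7.84 in de2f1 discs, without overlap (1.00 ± 0.09, adjusted p = 4.39e-06). lok, the Chk2 checkpoint kinase that acts upstream of p53, was higher by 0.45 ± 0.06 (adjusted p = 0.000351). Fancm, a helicase of the Fanconi pathway, was lower: 7.39 and 7.46 against 6.20, 6.37 and 6.52 (-1.06 ± 0.14, adjusted p = 0.000257). The checkpoint clamp gene Hus1-like was lower by -0.51 ± 0.09 (adjusted p = 0.00181). All 4 also passed in untreated discs in the same direction (0.69 ± 0.08, 0.22 ± 0.06, -0.90 ± 0.13 and -0.40 ± 0.08 in the order named). The single-strand break repair gene XRCC1 was lower by -0.46 ± 0.10 (adjusted p = 0.0118) but missed the threshold without wild type array 1 or 3 (adjusted p = 0.118 and 0.0549, over its alternatives 0.00115 to 0.118).

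Among 14 cell death genes 0 were higher and 2 lower (14.3%, against 5.92% of all genes), with a median of -0.07. The death genes rpr, hid, Drice, Decay and Diap1 were not measured here for lack of a probe set with 1 gene symbol. The initiator caspase gene Dronc read 11.73 and 11.72 in wild type and 11.04, 11.15 and 11.08 in de2f1 discs. The groups were apart by -0.64 ± 0.07 (adjusted p = 2.93e-05), close to the -0.52 ± 0.06 of untreated discs (adjusted p = 6.12e-05). The caspase gene Dredd was lower by -0.26 ± 0.05 (adjusted p = 0.00656) and missed the threshold without wild type array 1 (adjusted p = 0.0777, over its alternatives 0.000805 to 0.0777). In the TNF, JNK and injury list of 20 genes 1 was higher (5%) and 2 lower (10%), against 4.45% and 5.92% of all genes. The JNK phosphatase gene puc, a standard readout of the pathway, read 10.96 and 11.01 against 10.54, 10.55 and 10.55 (-0.44 ± 0.08, adjusted p = 0.00393). Its call was lost without wild type array 3 (adjusted p = 0.0561, over its alternatives 0.000378 to 0.0561), and the untreated difference was -0.43 ± 0.08. The JNK pathway kinase gene msn was higher by 0.63 ± 0.13 and lost its call without wild type array 1 (adjusted p = 0.0944, over its alternatives 0.000781 to 0.0944). Jra, the Jun gene, was lower by -0.27 ± 0.06 and lost its call without wild type array 1 or 3 (adjusted p = 0.0989 and 0.0636, over its alternatives 0.00233 to 0.0989).

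Genes of eye development differed little. Of 10 retinal determination genes 1 was higher (10%), and of 12 furrow and proneural genes 1 was lower (8.33%). Of 30 photoreceptor genes 1 was higher and 1 lower (3.33% each). Among all genes 4.45% were higher and 5.92% lower. The list medians were 0.05, -0.07 and -0.03 in this order. Each of these 4 calls hung on single arrays. The Pax6 gene toy was higher by 0.40 ± 0.08 (adjusted p = 0.0717 without wild type array 1, over its alternatives 0.0023 to 0.0717). The BMP ligand gene dpp was lower by -0.39 ± 0.10 and missed the threshold without wild type array 1 or 3 or de2f1 array 1 or 3 (adjusted p of 0.057 to 0.138, over its alternatives 0.00436 to 0.138). The zinc finger gene nerfin-1, active in young neurons, was lower by -0.99 ± 0.22 (adjusted p = 0.087 without wild type array 1 and 0.0763 without wild type array 3, over its alternatives 0.00228 to 0.087). sina, which acts in R7 photoreceptor choice, was higher by 0.24 ± 0.07 (adjusted p of 0.0782 to 0.383 without wild type array 3 or any de2f1 array, over its alternatives 0.0133 to 0.383). Notch targets gave 1 higher and 2 lower of 13, 7.69% and 15.4% against 4.45% and 5.92% of all genes. None of these 3 calls held with every array left out in turn. The bearded family gene Brd (-0.69 ± 0.15) was lost without wild type array 1 or 3 (adjusted p = 0.0978 and 0.0601, over its alternatives 9.62e-05 to 0.0978). E(spl)m5-HLH (0.69 ± 0.15) and Tom (-0.34 ± 0.06) were lost without wild type array 3 (adjusted p = 0.163 and 0.0681, the highest over their alternatives, whose lowest were 0.00215 and 0.00116). Ecdysone response factors gave 0 of 10.

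**Figure D3:**
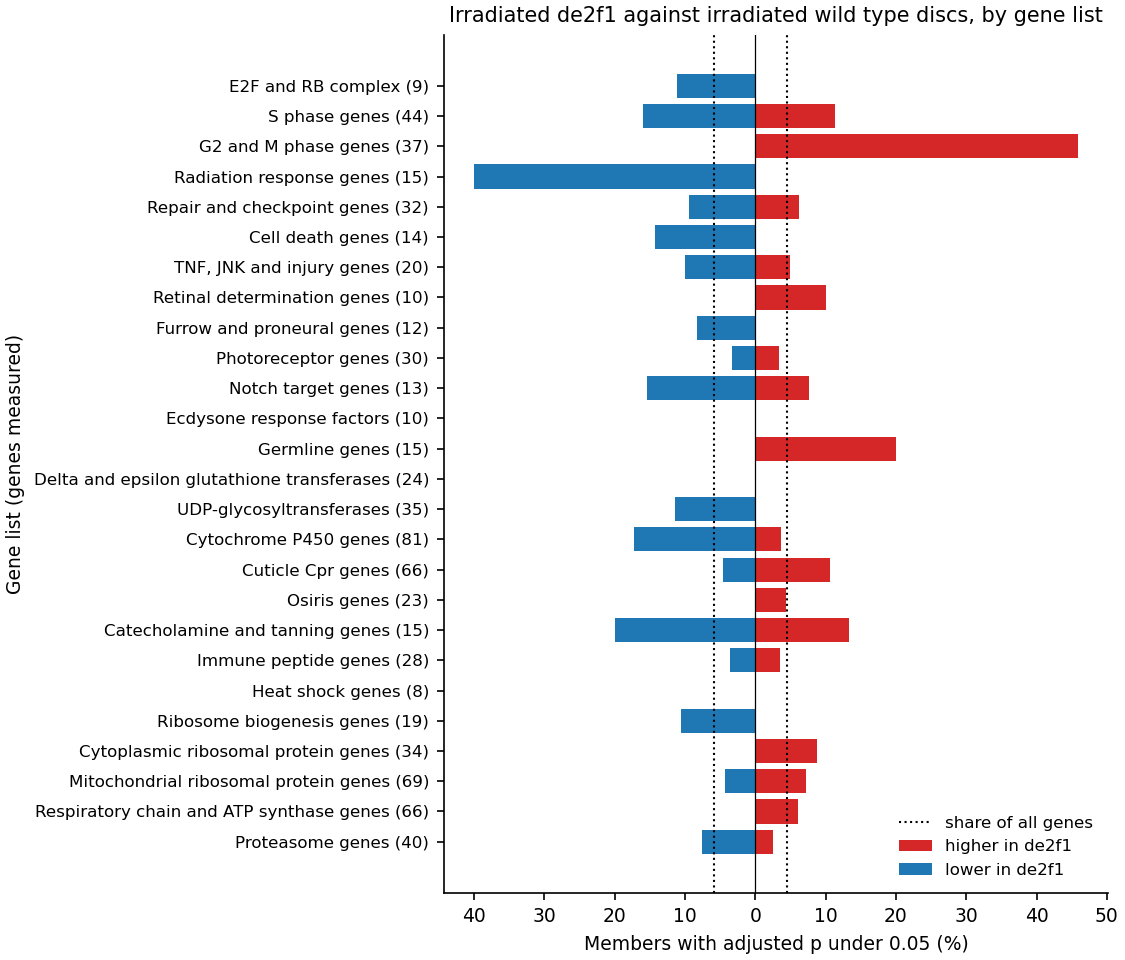
Share of the measured genes of each list, in percent, that were lower (blue, to the left) or higher (red, to the right) in irradiated de2f1 than in irradiated wild type discs at adjusted p under 0.05; dotted lines are the shares among all genes, 5.92% lower and 4.45% higher. G2 and M phase genes stand at 45.9% higher and 0 lower, radiation response genes, a list chosen partly on these arrays, at 40% lower and 0 higher. Every list was chosen with earlier results of these data known, so the shares are a description.

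The largest single differences fell outside these processes. Cyp4p2 and Cyp4p1, neighbouring cytochrome P450 genes on 2R, were among the 3 genes with the largest higher values. Cyp4p2 read 5.45 and 5.49 in wild type and 11.66, 11.39 and 11.81 in de2f1 discs. That is 6.15 ± 0.29 on the log2 scale or 70.9-fold (adjusted p = 8.85e-09), after 5.15 ± 0.26 in untreated discs. Cyp4p1 read 6.17 and 6.29 against 10.62, 10.56 and 10.95 (4.48 ± 0.27, adjusted p = 8.76e-08). Neither gene's groups came near each other. Among 81 P450 genes the balance was the other way, with 3 higher (3.7%) and 14 lower (17.3%) against 4.45% and 5.92% of all genes. The median was -0.06. The lower ones included Cyp6a20 (-2.95 ± 0.39), Cyp6d5 (-1.76 ± 0.20), Cyp4d2 (-1.53 ± 0.21) and Cyp6a13 (-1.44 ± 0.11), all of which also passed in untreated discs. The count of lower members was 6 without wild type array 3 and 9 without de2f1 array 3.

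Other large differences on the higher side were those of Rnf11, a RING finger gene on chromosome 4, Hsc70-2, a chaperone gene, CG32373, CG9150, CG8768 and CG13029. Rnf11 read 6.31 and 6.64 in wild type and 10.07, 10.25 and 10.30 in de2f1 discs (3.73 ± 0.28, adjusted p = 1.04e-06). Hsc70-2 read 4.33 and 4.57 against 8.10, 8.14 and 8.03 (3.64 ± 0.10, adjusted p = 7.76e-11). Its wild type mean lies below 4.59, the highest lower quartile of any array, so the difference is a lower bound. CG32071 had a nominal difference of 4.53 ± 1.31 (adjusted p = 0.0481), but its de2f1 arrays read 11.94, 11.40 and 7.53 against 5.79 and 5.73. This call was lost without either wild type array or de2f1 array 1 or 2 (adjusted p of 0.143 to 0.222, over its alternatives 0.00774 to 0.222).

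krimp, which codes for a Tudor protein of the piRNA pathway, read 5.89 and 5.34 in wild type and 8.87, 8.91 and 8.89 in de2f1 discs (3.28 ± 0.14, adjusted p = 4.83e-09). tut, a translational repressor of the male germline, read 5.66 and 6.07 against 9.03, 9.27 and 8.97 (3.22 ± 0.17, adjusted p = 3.34e-08). Both were as far apart in untreated discs (3.35 ± 0.13 and 3.18 ± 0.15). With the Piwi family gene aub (0.62 ± 0.09), 3 of 15 germline genes were higher (20%, against 4.45% of all genes) and 0 lower, while the list's median was 0.01. With array weights the counts were 6 higher and 2 lower, and in untreated discs they were 5 and 3. The sugar receptor gene Gr64a was higher by 3.13 ± 0.17 (adjusted p = 4.9e-08), from 4.90 and 4.75 to 7.96, 7.92 and 7.98. Of 34 cytoplasmic ribosomal protein genes 3 were higher and 0 lower (8.82%), and RpS19b (1.70 ± 0.18) was the 1 that passed with any array left out, while RpS5b (0.66 ± 0.18) and RpL27 (0.23 ± 0.06) were lost without wild type array 1 (adjusted p = 0.0568 and 0.19), wild type array 3 (0.307 and 0.0984) or de2f1 array 2 (0.0909 and 0.061), and RpS5b also without de2f1 array 3 (0.105). Of 66 respiratory chain and ATP synthase genes 4 were higher and 0 lower (6.06%, near the 4.45% of all genes). ATPsynepsilonL (1.78 ± 0.13) and COX7AL (0.68 ± 0.11) passed with any array left out, while ND-B17 (0.31 ± 0.07) and UQCR-6.4 (0.25 ± 0.06) were lost without wild type array 1 (adjusted p = 0.102 and 0.0658) or 3 (0.0906 and 0.168), and UQCR-6.4 also without de2f1 array 1 or 3 (0.0552 and 0.0566). Over the alternatives adjusted p was 0.00885 to 0.307 for RpS5b, 0.0069 to 0.19 for RpL27, 0.000516 to 0.102 for ND-B17 and 0.000935 to 0.168 for UQCR-6.4.

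On the lower side CG15772 read 9.45 and 9.47 in wild type and 4.16, 4.18 and 4.33 in de2f1 discs. The ionotropic receptor gene Ir76a read 9.05 and 9.03 against 4.65, 4.51 and 4.56. In both genes the de2f1 arrays were near the floor of the array, and the differences of -5.23 ± 0.28 and -4.47 ± 0.09 (adjusted p = 3.34e-08 and 7.01e-13) are lower bounds of the size. The tan gene t, which codes for a hydrolase of dopamine and histamine conjugates, was lower by -2.35 ± 0.22 (adjusted p = 8.38e-06), from 9.13 and 9.55 to 6.84, 7.40 and 6.73. The carboxypeptidase gene CG8560 was lower by -2.26 ± 0.19, and CG6912, CG9757 and CR44101 by -3.86 ± 0.32, -3.51 ± 0.47 and -3.04 ± 0.31. Rgk1, a small GTPase gene, was lower by -1.96 ± 0.55 (adjusted p = 0.0396), with wild type arrays at 9.22 and 8.10, and its call was lost without any 1 of the 5 arrays (adjusted p of 0.0585 to 0.318, over its alternatives 0.0132 to 0.318). PGRP-LB, an amidase that dampens immune signalling, was lower by -1.13 ± 0.13 (adjusted p = 6.88e-05).

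**Figure D4:**
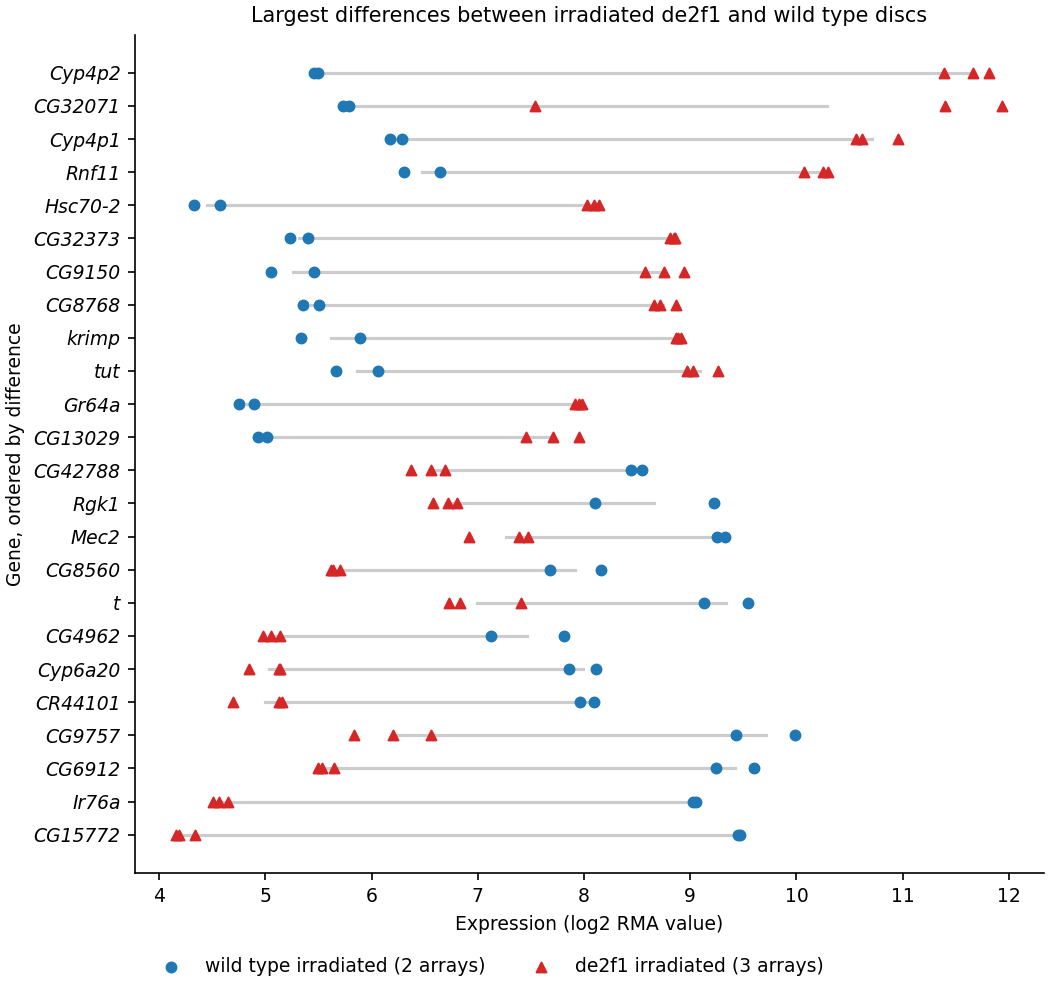
Log2 RMA values on the 2 irradiated wild type arrays (blue circles) and 3 irradiated de2f1 arrays (red triangles) for the 12 genes with the largest called differences in each direction, with grey lines joining group means. Only genes whose groups did not overlap were taken, which held for all 533 higher and 709 lower called genes. CG32071 has 1 de2f1 array at 7.53 against 11.40 and 11.94 on the others, and Cyp4p2 spans from 5.45 to 11.81.

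Genes called in irradiated discs mostly had the same sign in untreated discs, on 6 arrays the irradiated contrast does not use. In untreated discs 1688 probe sets passed (8.99%), 731 higher (3.89%) and 957 lower (5.1%). Of the 533 genes higher in irradiated de2f1 discs 378 also passed as higher in untreated ones, 70.9% of the irradiated and 67.7% of the untreated list. Of the 709 lower genes 469 also passed as lower, 66.1% and 64.7% of the lists. The sign was the same in 97.9% of the higher and 97.2% of the lower genes, against 74.4% of all genes. As a description across 11982 genes, which are not independent and share the spread estimate, the differences had Pearson's r of 0.834 and Spearman's rho of 0.691. Only 1 higher and 3 lower genes passed in the opposite direction in untreated discs.

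A test of the difference between the contrasts passed for 10 of 18769 probe sets (0.0533%), and for 7 of 11982 genes (0.0584%), all of them lower in de2f1 after irradiation relative to before, and 769 probe sets had an unadjusted p under 0.05. The largest were on probe sets of dysf and ftz-f1 that do not have the highest mean over all 17 arrays for their genes and were named after their values were seen. dysf, which codes for a transcription factor of tracheal fusion cells, read 9.62 and 9.70 in irradiated wild type and 4.73, 4.46 and 4.79 in irradiated de2f1 discs, against means of 5.42 and 4.89 in untreated wild type and de2f1 discs. The nuclear receptor gene ftz-f1, which sets timing around metamorphosis, read 9.85 and 10.37 against 6.32, 5.92 and 5.65, with untreated means of 6.61 and 5.81. Both probe sets were thus high in irradiated wild type discs alone among these 4 groups. The irradiated difference was -5.00 ± 0.17 for dysf and -4.14 ± 0.28 for ftz-f1 (adjusted p = 3.22e-10 and 2.93e-07). The other probe sets, by which these genes are counted elsewhere in the text, differed by -0.09 (adjusted p = 0.672) and -0.20 (adjusted p = 0.692).

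Smaller differences of this kind included CG4962, which read 7.12 and 7.81 in irradiated wild type and 4.97, 5.05 and 5.14 in irradiated de2f1 discs, with untreated means of 5.45 and 5.06. La, an RNA-binding protein gene, read 12.27 and 12.29 against 11.78, 11.87 and 11.82, with untreated means of 11.39 and 11.37. The irradiated de2f1 levels of La were above the untreated ones, and below the irradiated wild type ones by -0.46 ± 0.05 (adjusted p = 6.23e-05). The count of 10 was 3 with the replicate number as a block, 27 with array weights and 1 to 8 when 1 array was left out.

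**Figure D5:**
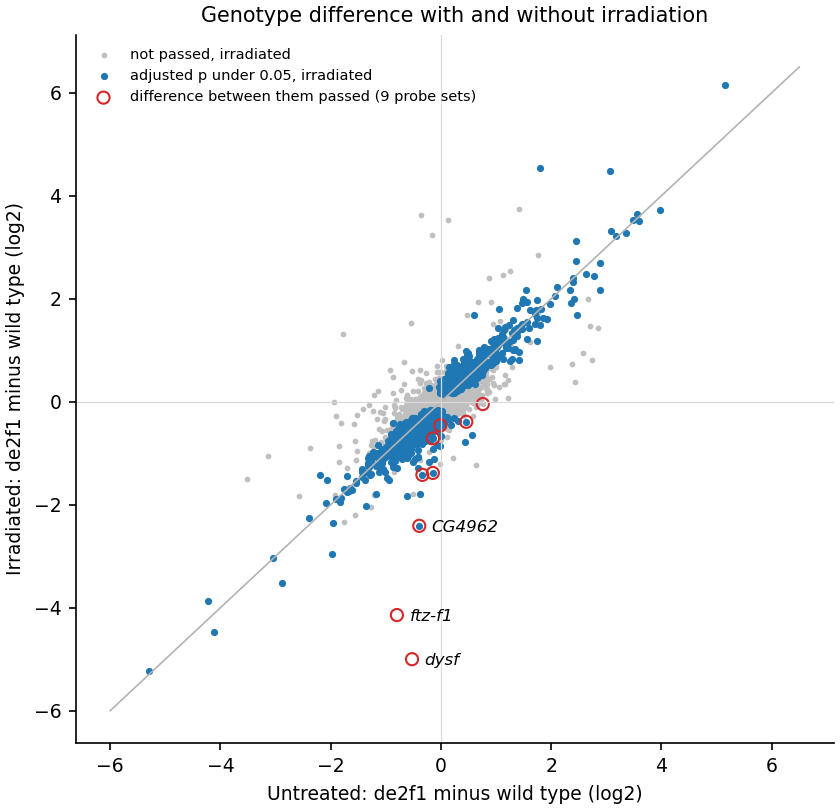
Difference between de2f1 and wild type discs (log2) in irradiated discs (vertical) against untreated discs (horizontal), 1 point per gene, blue where adjusted p was under 0.05 in irradiated discs, with the line of equal values. Red circles mark the 9 named probe sets for which the irradiated and untreated differences differed at adjusted p under 0.05; dysf and ftz-f1, at -5.00 and -4.14 in irradiated discs, lie farthest from the line.

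Markers of tissues that can remain attached to dissected discs were measured beside these results. Salivary gland markers averaged 10.21 and 10.71 in wild type and 9.56 to 11.71 in de2f1 discs, with 0 of 13 passing. Fat body markers averaged 6.51 and 7.34 against 6.19 to 8.80, with 0 of 5 passing. Hemocyte markers averaged 9.08 and 9.23 against 9.31 to 9.68, so the groups did not overlap in the mean. NimC1 was the 1 of 13 to pass (1.17 ± 0.31, adjusted p = 0.0288), a share of 7.69% higher, near the 4.45% of all genes. NimC1 missed the threshold without wild type array 1 or 3 or de2f1 array 2 or 3 (adjusted p of 0.0579 to 0.184, over its alternatives 0.0117 to 0.184). Of 6 tracheal markers 3 were lower, against 5.92% of all genes, and the mean of the 6 was 9.87 and 9.88 against 9.64 to 9.70. The FGF receptor gene btl (-0.70 ± 0.13, adjusted p = 0.00328) passed with any array left out. vvl (-0.65 ± 0.17) was lost without either wild type array or de2f1 array 2 or 3 (adjusted p of 0.0825 to 0.237), and Gasp (-0.18 ± 0.05) without any 1 of the 5 arrays (adjusted p of 0.0712 to 0.263). Over all their alternatives adjusted p was 0.0116 to 0.237 for vvl and 0.00884 to 0.263 for Gasp. Among 8 glial markers the glial regulator repo was lower by -0.65 ± 0.12 (adjusted p = 0.00265), and wrapper was higher by 1.67 ± 0.34, a call lost without wild type array 1 or 3 (adjusted p = 0.0553 and 0.0589, over its alternatives 0.00136 to 0.0589). The glial share was 12.5% in each direction, against 4.45% higher and 5.92% lower among all genes. The mean of the 8 glial markers was 9.27 and 9.23 in wild type against 9.45 to 9.52 in de2f1 discs, opposite in direction to repo. None of 8 muscle, 9 brain neuron and 7 ring gland markers passed. The part of these tissues in the other differences was not tested.

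Probe sets of 1 gene did not always give the same answer. Of the called genes 111 had more than 1 probe set. All of them passed in the same direction for 22 genes, not all passed for 84, and at least 1 passed the opposite way for 5. RFeSP, the Rieske subunit of respiratory complex III, read 10.40 and 10.47 in wild type and 4.79, 4.82 and 5.04 in de2f1 discs on 1 probe set (-5.55 ± 0.09, adjusted p = 8.34e-14), while its other probe set differed by 0.08 (adjusted p = 0.641). This gene was named after its values were seen. A further probe set of gkt was lower by -4.34 ± 0.45 (adjusted p = 2.45e-05), with wild type arrays at 13.10 and 10.67 and de2f1 arrays at 7.42 to 7.65. Both probe sets of gkt thus passed as lower, by different amounts.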

How the data were processed

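RNA of eye discs (50 ng per sample, per the labels) was hybridised to Affymetrix Drosophila Genome 2.0 arrays. The authors deposited log2 values, 1 per probe set and array, and the submitters' processing notes name RMA as the method, its version not being given in the sources used here. No further scaling was applied. The 183 control probe sets were left out, leaving 18769. Of these, 13647 carried 1 gene symbol, 402 several and 4720 none; genes are read from the brightest probe set with 1 symbol (11982 genes, 1094 with several).

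The test was limma 3.58.1 (R 4.3.3) on all 17 arrays, with a mean for each of the 6 groups and a moderated variance (default eBayes, prior SD 0.0935 with 2.56 degrees of freedom), and Benjamini-Hochberg adjustment. Wild type irradiated replicate 2 was not analysed here. The number of arrays limits the precision. Named genes were 10 of general interest, the 12 largest called differences per direction without overlap, up to 4 called members per list by adjusted p and up to 5 interaction genes per direction; G2 and M phase, S phase and radiation response genes beyond these, and those stated in the text or named in the closing section, were added after their values were seen. Members, lists and rules were chosen with earlier results of these data known. Alternatives were trended or robust priors, array weights, omission of the 40% dimmest probe sets, 1 or every probe set per gene, quantile normalization, the compared arrays alone, the 11 wild type and de2f1 arrays (added after seeing the data), a block for the replicate number, and omission of each array in turn.

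The fit was tested on simulated data with known shifts. Python 3.11.15, pandas 2.3.3 and matplotlib 3.10.9 made tables and figures. Gene order came from the RefSeq Release 6 annotation.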

Additional observations from a re-analysis of the deposited data

Results flagged for a closer look

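For 10 probe sets the de2f1 to wild type difference in irradiated discs differed from that in untreated discs by the interaction term of the limma fit (Benjamini-Hochberg adjusted p over all probe sets under 0.05). Values below are the irradiated minus the untreated difference. It was -4.48 for dysf, -3.34 for ftz-f1, -2.02 for CG4962 and -1.47 for a probe set without a gene symbol. Among the smaller ones were CG32313 (-1.24), CG31601 (-1.08), Ugt302K1 (-0.85), the neprilysin-like gene Nepl3 (-0.80), Ugt303A1 (-0.57) and La (-0.45).

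For Nepl3 the irradiated groups overlapped (-0.05 ± 0.09), and the difference lay in untreated discs (0.76 ± 0.08, adjusted p = 1.53e-05). Ugt302K1, a UDP-glycosyltransferase gene, was higher in untreated (0.46 ± 0.09) and lower in irradiated de2f1 discs (-0.39 ± 0.10, adjusted p = 0.0236). Its irradiated call was lost without wild type array 1 or 3 or de2f1 array 1 or 3 (adjusted p of 0.0671 to 0.203, over its alternatives 0.00735 to 0.203). Ugt303A1 read 3.52 to 4.30 on all 5 irradiated arrays, near the floor of the array. CG31601 read 5.36 and 5.56 in irradiated wild type and 4.21, 3.99 and 3.91 in irradiated de2f1 discs, with untreated means of 4.32 and 3.98. All of its values but the irradiated wild type ones lie near the floor, so its difference and that of Ugt303A1 are not measured sizes.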

How the results depend on the processing

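The count of 1619 probe sets called between irradiated de2f1 and wild type discs was 2781 with array weights and 737 to 1281 with 1 array left out. It was 1410 with the replicate number as a block. The 1688 of untreated discs became 1158 to 1324 with 1 array left out. The 10 probe sets of the interaction became 27 with array weights, 3 with the replicate block and 1 to 8 with 1 array left out. Deviations of same-numbered arrays correlated at -0.26 and -0.25 in irradiated and at 0.064, -0.195 and 0.047 in untreated discs. These values gave no sign of pairing by replicate number. With 2 wild type arrays the irradiated values are not independent of each other, so they cannot settle whether samples were paired. Of 146 called genes checked, 74 kept their call under every alternative and 0 changed sign. Among the checked genes that did not pass, 5 (CycE, mre11, Rchy1, rdog and Xpc) passed under 1 or 2 of the alternatives. Sign changes occurred in genes that did not pass: skl (-0.011 with array weights, -0.027 after quantile normalization, -0.037 with the block), and dup (0.010), Rbf2 (0.011) and Ts (0.068) after quantile normalization. With 1 array left out the values ran from -0.025 to 0.16 for Dp, -0.080 to 0.0078 for dup, -0.12 to 0.035 for Rbf, -0.023 to 0.15 for Ilp8, -0.090 to 0.011 for Rbf2, -0.041 to 0.047 for skl and -0.10 to 0.040 for Ts. The cause of these changes was not tested. Where a wild type array is left out, the lone array is assumed to vary like the other groups.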

Other observations

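Called genes of 1 direction lay next to each other in the gene order more often than genes in general lay next to one. Of 532 higher genes with a position 76 (14.3%) had a higher gene as a measured neighbour, against 8.65% of all genes, and of 706 lower genes 124 (17.6%) had a lower one, against 11.4%; the longest run held 3 genes. Such runs included the yellow family genes yellow-e3 (0.71 ± 0.15), yellow-e2 (0.95 ± 0.13) and yellow-e (0.85 ± 0.21), and the sugar receptor genes Gr64a and Gr64f (3.13 ± 0.17 and 2.17 ± 0.20). The call of yellow-e was lost without wild type array 1 or de2f1 array 1 or 3 (limma adjusted p of 0.0559 to 0.213, over its alternatives 0.00204 to 0.213).

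Metallothionein genes split. MtnB, which binds metal ions, read 4.80 and 4.67 in irradiated wild type and 6.18, 7.22 and 7.27 in irradiated de2f1 discs (2.16 ± 0.41, limma adjusted p = 0.0041), and MtnD differed by 2.44 ± 0.68 (adjusted p = 0.0404). MtnA (-0.13 ± 0.22, adjusted p = 0.827) and MtnC (0.07 ± 0.06, adjusted p = 0.569) did not pass. Other genes with separated groups were the mitochondrial ribosomal gene tko (9.34 and 9.33 against 11.22, 11.18 and 11.28) and the zinc finger gene jim (11.18 and 11.10 against 13.31, 13.43 and 13.32). Both were as far apart in untreated discs, by 1.99 ± 0.07 and 2.11 ± 0.07.

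Among 66 cuticle protein genes of the Cpr family 7 were higher (10.6%) and 3 lower (4.55%), against 4.45% and 5.92% of all genes. Among them Cpr56F (1.14 ± 0.20), Cpr65Ec (1.13 ± 0.20), Cpr51A (0.56 ± 0.08) and Cpr78Ca (-0.999 ± 0.15) kept their calls with any array left out. The higher count was 3 without either wild type array and 4 without de2f1 array 2, and the lower count 1 without wild type array 3 and 2 without de2f1 array 1. The 15 catecholamine and tanning genes gave 2 higher (13.3%) and 3 lower (20%). Of the lower ones, stw and t kept their calls under every alternative. The call of amd (-0.65) was lost without any 1 of the 5 arrays and after quantile normalization. Without wild type array 1 neither higher one passed (yellow-e, adjusted p = 0.213, and yellow-h, adjusted p = 0.117, the highest over its alternatives, the lowest being 0.00204). Of 28 immune peptide genes 1 was higher and 1 lower (3.57% each), and the higher one, PGRP-SB1, was lost without the same array (adjusted p = 0.133, over its alternatives 0.00394 to 0.133). Of 23 Osiris genes 1 was higher (4.35%), and of 35 UDP-glycosyltransferases 4 were lower (11.4%). With any array left out Ugt50B3 (-0.88 ± 0.09) and Ugt303A1 kept their calls, the latter near the floor. Ugt302C1 (-0.45 ± 0.09) was lost without wild type array 3, and Ugt302K1 without wild type array 1 or 3 or de2f1 array 1 or 3. The 24 delta and epsilon glutathione transferases and 8 heat shock genes gave 0 calls. Of 69 mitochondrial ribosomal genes 5 were higher and 3 lower (7.25% and 4.35%), of 40 proteasome genes 1 and 3 (2.5% and 7.5%), and of 19 ribosome biogenesis genes 0 and 2 (10.5% lower), against 4.45% higher and 5.92% lower among all genes. With any array left out 2 of these 8, 0 of 4 and 0 of 2 calls held.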
